A study of Cricetulus griseus with 10 samples.

Results

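Chaperones of the cytosol and the mitochondrial matrix, their cofactors and heat shock factor 1 were followed in CHO-K1 cells during adaptation to suspension growth. The genes were chosen by name: 38 were listed, and 34 had a row in the deposited table, 15 under their symbol, 17 under their NCBI gene number and 2 under an older symbol (Hsp90aa1 as Hsp90a and Hsph1 as Hsp110). Each of the 34 had a mean of at least 10 normalised reads over all libraries and was tested, out of 13521 such features among 25156. The lowest was Hspa4l, with a mean of 11.2, followed by Bag2 with 185. Dnajb6, Hsp90ab1, Hspe1 and Hsf2 were not analysed here.

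CHO-K1 is an established line derived from the ovary of the Chinese hamster and a standard host for protein production. Wild-type cells were adapted in the SFM4CHO medium, which the title of the series calls serum free, and RNA was sequenced at passages 0, 2, 4, 6 and 10, written P0, P2, P4, P6 and P10 below, with 2 libraries per passage. The labels give the same cell line, genotype and medium for all 10 libraries and differ only in passage. How the P0 cells were grown is not given in the labels, nor whether the duplicates are separate cultures. The p-values therefore reflect only how far these libraries scatter, which may be technical. In bulk RNA, fewer cells of a type and less RNA per cell cannot be told apart.

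Chaperones hold proteins in a state from which they can fold. Hsp70 proteins bind short exposed stretches of a client, J-domain proteins bring clients to them and speed their ATPase, and Hsp110 and Bag proteins release the nucleotide so that the client can leave. Hsp90 takes over clients such as kinases and steroid receptors with the help of cofactors that bind in turn, while the ring-shaped chaperonin TRiC encloses actin, tubulin and other proteins. Mitochondria have an Hsp70, an Hsp90 and a chaperonin of their own, encoded in the nucleus. The heat shock factor HSF1 is the main activator of many of these genes when proteins misfold.

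Depth ranged from 8394219 to 16599495 reads per library. Duplicates correlated across genes at 0.988, 0.989 and 0.992 at P0, P2 and P4, but at 0.956 at P6 and 0.930 at P10. For the chaperone genes, the median gap between duplicates was 0.0807 to 0.102 on the log2 scale at P0, P2 and P4, 0.393 at P6 and 0.385 at P10. Over all tested features it was larger at each passage, 0.127 to 0.175 through P4, 0.430 at P6 and 0.575 at P10. A single feature, Dym, took 8.53 to 13.5% of normalised reads through P4 and 10.7% in the second P10 library, but 4.32% in P6 replicate 1, 1.15% in P6 replicate 2 and 1.41% in P10 replicate 1. Since P6 replicate 2 and P10 replicate 1 stood apart in this way, results that change with both left out are given in that form too, as the 8-library fit. P6 and P10 then have 1 library each, and the spread comes from the duplicates of P0, P2 and P4 alone. Duplicates differed more at P6 and P10, as given above, so calls of that fit at P6 or P10 rest on too small a spread. For those, only the size of the change is informative. Of 5 mesenchymal markers 5 had a mean of at least 10, and of 5 epithelial markers 1 had, Cdh1. The 6 leukocyte markers summed to 48.8 to 61.8 normalised reads at P0, 177 to 207 at P4, 149 to 207 at P6 and 105 to 166 at P10. At P4 most of the difference was in Itgax and Cd68. Ptprc was at -0.11, 0.73 and 0.74 on the log2 scale at P4, P6 and P10 by limma (adjusted p = 0.911, 0.242 and 0.277). Laptm5 had 43.8 normalised reads in P6 replicate 2, 33.8 in P10 replicate 1 and at most 10.5 in the other libraries. Cd14 was at 0 in all libraries but 1, and the part of these markers in the results below was not tested. The 4 endothelial markers summed to 57.5 to 59.2 at P0, 47.0 and 109 at P6 and 47.3 to 47.6 at P10.

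Fewer chaperone genes were far from their P0 level through P4 than at P6 and P10, and the same held for all features. The summed normalised reads of the 34 genes were 1.08 and 1.02 times the P0 mean at P2, at most 1.06 times at P4, 1.13 and 0.860 times at P6, and 1.43 and 1.48 times at P10. The sum is weighted to genes with many reads. The median gene stood at 1.12 times its P0 mean in P10 replicate 1 and at 1.37 times in P10 replicate 2, where the medians of all tested features with a read at P0 were 0.967 and 1.04. In P10 replicate 1, 10 of the 34 genes were at least 1.5 times their P0 mean (29.4%, against 24.4% of all such features). In P10 replicate 2, 11 were (32.4% against 20.3%). In each P2 or P4 library 1 to 3 genes reached this level (2.94 to 8.82%), where at least 11.0% of all features did. In P6 replicate 2, 3 genes were at least 1.5 times their P0 mean (8.82%, against 23.7% of all features). There 14 were at most the inverse of that ratio (41.2%, against 29.9%). In P6 replicate 1 these counts were 8 and 3 (23.5% and 8.82%, against 20.4% and 23.0%). At P10 the genes at most the inverse numbered 3 in replicate 1 and 2 in replicate 2 (8.82% and 5.88%, against 27.4% and 20.9%).

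**Figure D1:**
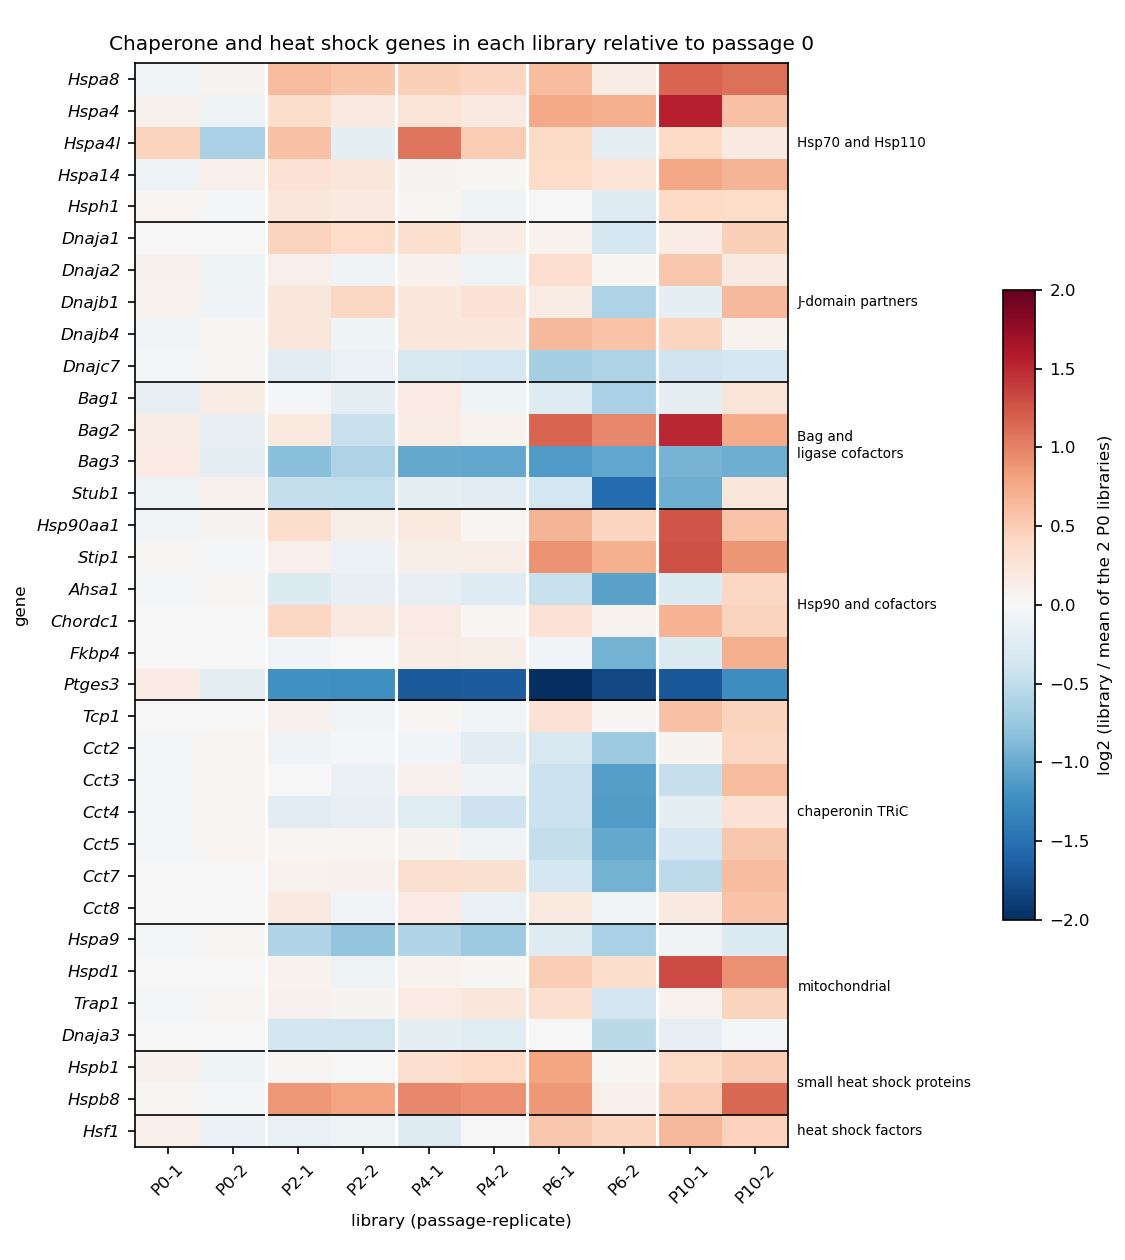
Log2 ratio of each library to the mean of the 2 P0 libraries (colour) for 34 chaperone and heat shock genes (rows, grouped by role) in 10 libraries (columns, passage and replicate). Ptges3 and Bag3 are below P0 in all 8 later libraries, and Hspa8, Hspa4, Hspa14, Hsp90aa1, Stip1, Hspd1 and Bag2 are above it in both P10 libraries.

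At P10 against P0, 7 of the 34 genes rose and 2 fell, by limma at an adjusted p under 0.05. The risers were Hspa8 and Hspa14 (Hsp70), Hspa4 (Hsp110 type), Hsp90aa1 (Hsp90) and its adaptor Stip1, the mitochondrial chaperonin Hspd1 and the cofactor Bag2. Ptges3 and Bag3 fell. The risers made up 20.6% of the genes, where 8.77% of all features rose, and those that fell made up 5.88%, where 8.25% of all features fell. The median log2 change was 0.29 over the 34 genes and 0.00 over all features, and 28 of the 34 were above zero. In either direction 9 genes passed, and 17.0% of all features did. Both P10 libraries lay above both P0 libraries for 19 of the 34 genes and below them for 5, against 28.3% and 26.0% of all features. When each library was scaled to its total without Dym, the median of all features moved by -0.10, 827 features rose and 1312 fell in place of 1186 and 1115, and Hspa8, Hspa14, Hspd1 and Stip1 still rose. Hsp90aa1, Hspa4 and Bag2 then missed the threshold (adjusted p = 0.0807, 0.0614 and 0.0680 by limma) with changes of 0.81, 0.98 and 1.03. This scaling shifts all features of a library alike, so changes relative to the median of all features stay nearly the same by construction. No member rose without P0 replicate 1 or without P0 replicate 2, 1 fell without P0 replicate 1, and 11 rose without P10 replicate 2. In these fits 1.32%, 1.90% and 18.3% of all features rose. With P6 replicate 2 and P10 replicate 1 left out, 23 rose and 3 fell (67.6% and 8.82%), where 26.0% of all features rose and 20.2% fell. With a fit to the 4 libraries of P0 and P10 only, none of the 34 passed in either direction, and 0.362% of all features did.

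Earlier passages gave few calls in the fit to all 10 libraries. At P2, 0 of the 34 genes rose and 1 fell, Ptges3, where 2.08% of all features rose and 2.07% fell. At P4, 0 rose and 2 fell, Ptges3 and Bag3 (background 3.72% and 5.52%). At an unadjusted p under 0.05, 2 genes were higher at P2 and 1 at P4 by limma. The share of all features at that threshold was not computed. By edgeR none was higher at P2 or P4 (1.84% and 3.59% of all features). DESeq2 called none higher at P2 and 1 at P4, Hspb8 (3.48% and 5.46% of all features). At P6, Bag2, Dnajb4 and Stip1 rose and Bag3, Dnajc7 and Ptges3 fell, 3 of 34 each way (background 10.5% higher and 10.5% lower). Calls in either direction covered 4.15% of all features at P2, 9.24% at P4 and 21.0% at P6. Fits to the libraries of the compared passages alone gave a different order. They called 23.5% of the 34 genes at P2, 26.5% at P4, 17.6% at P6 and 0 at P10. Over all features these shares were 29.1%, 42.0%, 19.4% and 0.362%. Libraries of a passage lay wholly above P0 for 11 genes at P2, 14 at P4 and 12 at P6, and wholly below for 8, 9 and 13. Over all features these shares were 34.2%, 37.8% and 32.0% above and 32.9%, 34.6% and 35.7% below, so such a separation was common. The comparisons with P0 share the P0 libraries and are not independent of each other. As single libraries were left out, calls over all features in either direction ranged from 0.451 to 11.7% at P2, 1.06 to 20.6% at P4 and 3.05 to 40.2% at P6. The count of genes lower at P2 went from 0 to 3, and at P6 the counts went from 0 to 6 higher and 1 to 10 lower, as single libraries were left out; at P4 the genes lower went from 1 to 3. With P6 replicate 2 and P10 replicate 1 left out the counts were 4 higher and 5 lower at P2, 4 and 5 at P4, and 14 and 10 at P6. Calls over all features also grew, to 34.1% at P2, 43.1% at P4 and 48.8% at P6, beside 26.5%, 26.5% and 70.6% of the 34 genes. In the 8-library fit the P6 changes of Hspa14, Hspa4 and Hspd1 were 0.38, 0.75 and 0.49, beside 0.33, 0.73 and 0.42 with all libraries.

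**Figure D2:**
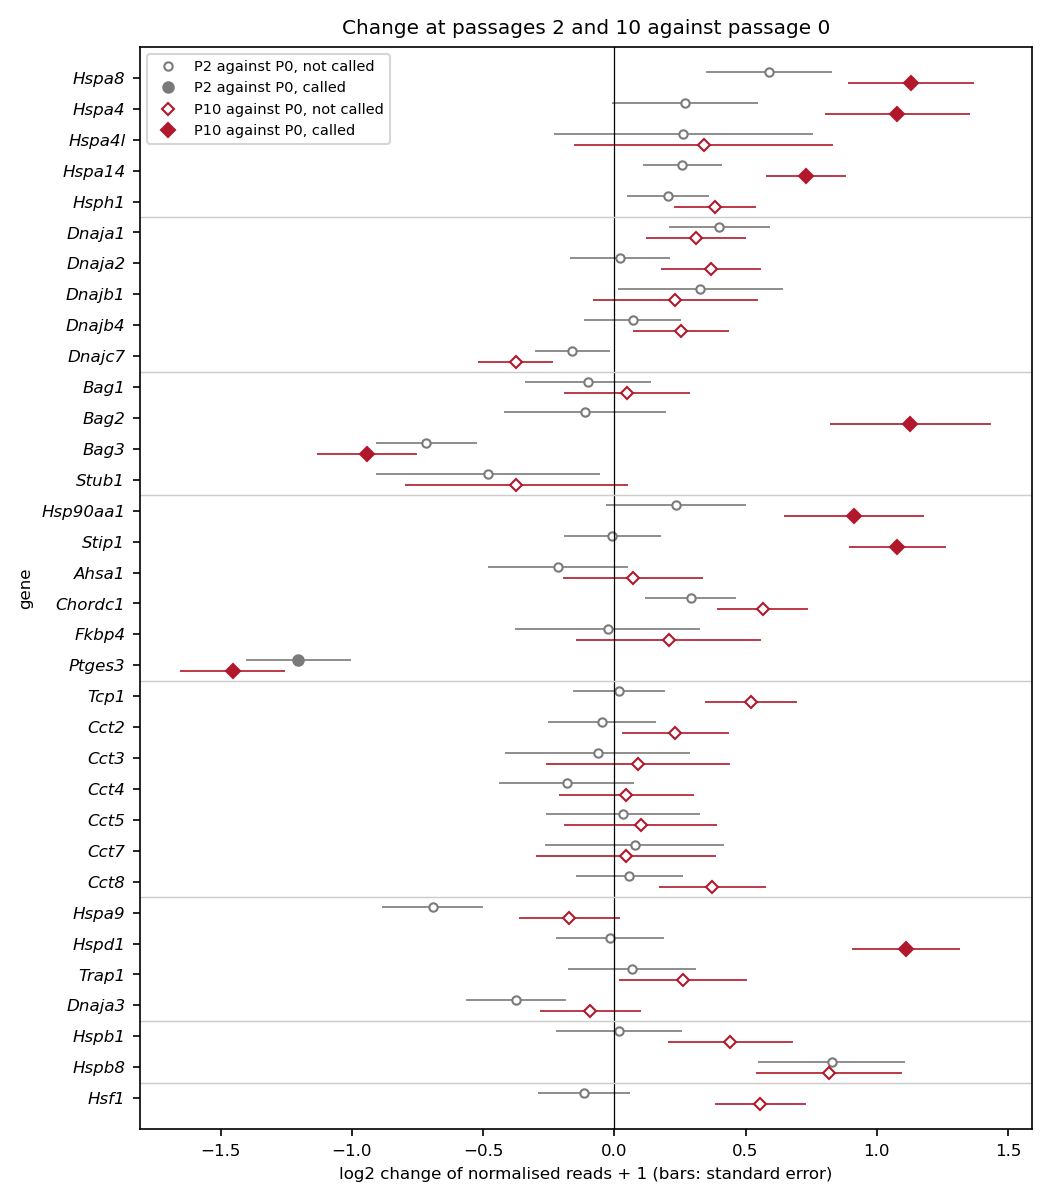
Log2 change of normalised reads plus 1 at P2 (circles) and P10 (diamonds) against P0 for the 34 genes, with standard errors as bars; filled symbols passed limma's test at an adjusted p under 0.05. Ptges3 is the 1 filled symbol at P2, and 9 symbols are filled at P10.

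Hsp70 and Hsp110 proteins were the role group with the most genes higher at P10, 3 of 5. Hspa8, the constitutive Hsp70 of the cytosol, stood at 10285 and 11156 normalised reads at P0, then 16566 and 15697 (P2), 14941 and 14373 (P4), 16652 and 11841 (P6) and 23971 and 22972 (P10). Both P10 libraries lay above all others, and every later library lay above both P0 libraries. The log2 change at P10 was 1.13 (SE 0.24, adjusted p = 0.0156), and the changes at P2, P4 and P6, of 0.59, 0.45 and 0.39, did not pass (adjusted p = 0.229, 0.293 and 0.257). The 8-library fit gave 0.59, 0.45 and 0.64. The P10 call was lost without P0 replicate 1 or P0 replicate 2 (highest adjusted p = 0.134) and with the spread of the P0 and P10 libraries alone (0.156).

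Hspa4, an Hsp110-type protein that releases nucleotide from Hsp70, had 1482 and 1298 normalised reads at P0, then 1766 and 1580 (P2), 1668 and 1566 (P4), 2341 and 2263 (P6) and 4091 and 2097 (P10). The P10 duplicates were far apart, with replicate 1 the highest of all libraries and replicate 2 below both P6 libraries. The log2 change at P10 was 1.08 (SE 0.28, adjusted p = 0.0312). It was 0.60 with P6 replicate 2 and P10 replicate 1 left out. The call was lost without any 1 of the 6 libraries through P4 (highest adjusted p = 0.164). Hspa14, a ribosome-associated Hsp70, had 738 and 854 normalised reads at P0, then 967 and 933 (P2), 830 and 809 (P4), 1031 and 965 (P6) and 1362 and 1276 (P10). Its P10 libraries were the 2 highest, and the change of 0.73 (SE 0.15, adjusted p = 0.0146) was lost without P0 replicate 1 or P0 replicate 2 (highest adjusted p = 0.137).

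The other members of the group did not pass in any comparison. Hsph1, the main Hsp110 and a known target of HSF1, had 1433 and 1368 normalised reads at P0 and 1846 and 1809 at P10. These did not overlap (log2 change 0.38, SE 0.16, adjusted p = 0.126). The P10 change was 0.37 with P6 replicate 2 and P10 replicate 1 left out. At P6 Hsph1 had 1396 and 1167. Hspa4l ranged from 5.75 to 18.8 normalised reads over the 10 libraries, too few for a firm comparison. Outside the list, the heat-inducible Hspa1a had 0 to 4 reads in each library, and its highest count was in P6 replicate 2. Its copy Hspa1b was not analysed here. Near-identical copies in this family could split reads, and the counting rule is not given in the sources used here.

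**Figure D3:**
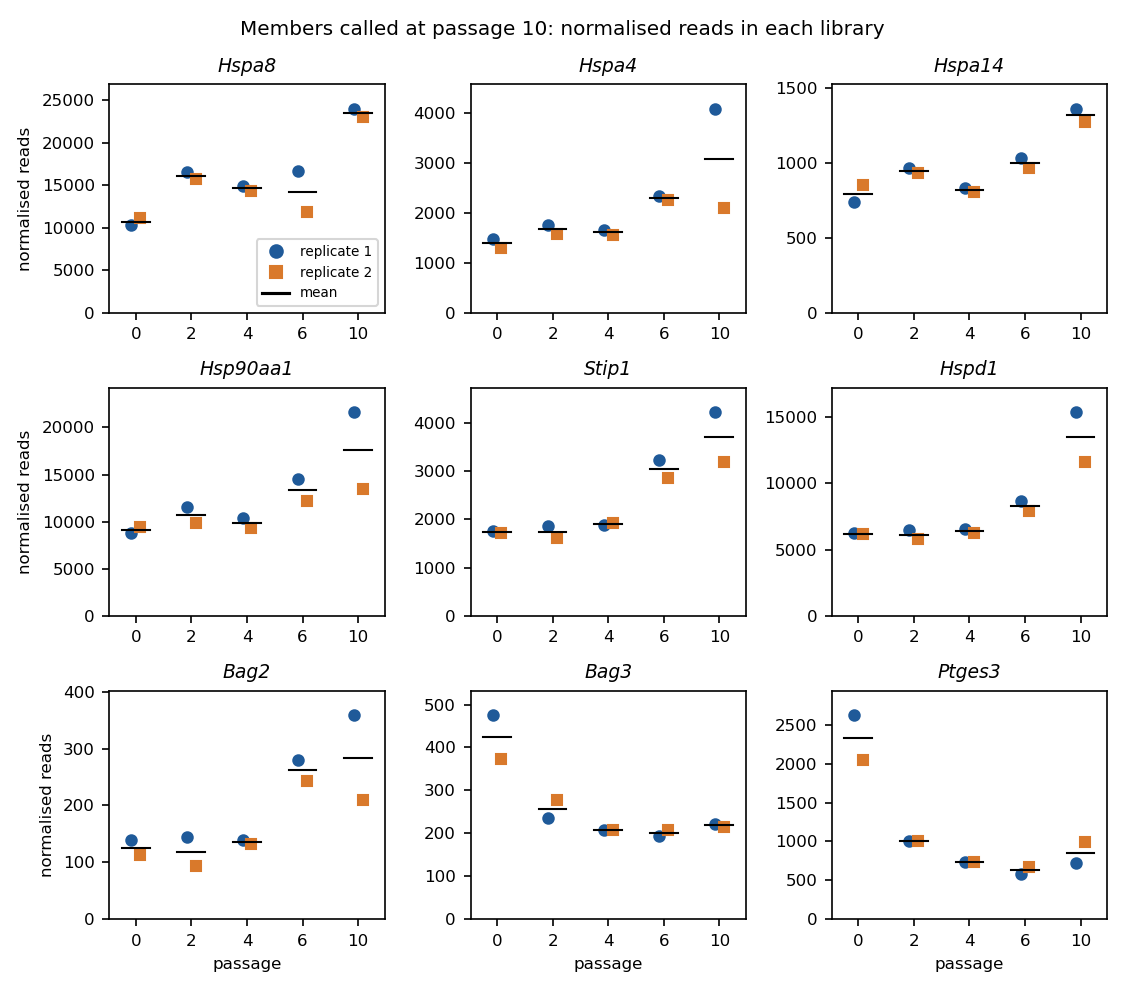
Normalised reads (vertical axes, from 0) at 5 passages for the 9 genes called at P10 against P0; circles are replicate 1, squares are replicate 2 and bars are the mean of 2 libraries. Ptges3 and Bag3 are already low at P2, Stip1 and Bag2 are higher from P6 on, and the P10 duplicates of Hspa4, Hsp90aa1 and Bag2 lie far apart.

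Among J-domain partners, 1 gene rose and 1 fell at P6 and none passed at P10 by limma, edgeR or DESeq2. At P10, 1 was lower at an unadjusted p under 0.05 by limma. The share of all features at that threshold was not computed. Dnajb4 had 518 and 553 normalised reads at P0, then 625 and 505 (P2), 617 and 620 (P4), 839 and 800 (P6) and 723 and 564 (P10). It was highest at P6 (log2 change 0.61, SE 0.18, adjusted p = 0.0456), a call lost without any 1 of the 8 libraries through P6 (highest adjusted p = 0.213) and when replicate number was fitted as a block (0.0615); it was also lost without a filter on low values, with an untrended prior and with the P0 and P6 libraries alone. Dnajc7, a cofactor that can bind both Hsp70 and Hsp90, had 1666 and 1740 at P0, then 1478 and 1569 (P2), 1375 and 1332 (P4), 1081 and 1107 (P6) and 1288 and 1338 (P10). All 8 later libraries lay below both P0 libraries, and the change at P6 was -0.64 (SE 0.14, adjusted p = 0.0178), lost without P0 replicate 1 or P0 replicate 2 (highest adjusted p = 0.112). At P10 the change was -0.38 (adjusted p = 0.105). In the 8-library fit Dnajc7 changed by -0.33 at P4 and -0.35 at P10.

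Dnajb1, the J-domain partner most often used as a readout of heat shock, had 373 and 339 normalised reads at P0, then 419 and 476 (P2), 412 and 437 (P4), 394 and 233 (P6) and 312 and 559 (P10). The P10 libraries lay on either side of P0, and no comparison passed (log2 change at P10 0.23, SE 0.31, adjusted p = 0.662). In the 8-library fit the changes of Dnajb1 were 0.65 at P10 and 0.33 at P2. Dnaja1 and Dnaja2, general partners of Hspa8, changed by 0.31 and 0.37 at P10 and did not pass (adjusted p = 0.300 and 0.221). Dnaja1 had 828 and 842 normalised reads at P0, 1131 and 1074 at P2 and 928 and 1157 at P10. The 8-library fit had Dnaja1 at 0.40 at P2 and 0.47 at P10, and Dnaja2 at 0.33 at P6.

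Bag proteins went in opposite directions. Bag3, which links Hsp70 to small heat shock proteins and to autophagy, had 475 and 374 normalised reads at P0, then 236 and 277 (P2), 209 and 207 (P4), 193 and 207 (P6) and 223 and 215 (P10). Every later library lay below both P0 libraries. The log2 change was -0.72 at P2 (SE 0.19, adjusted p = 0.0797), -1.01 at P4 (adjusted p = 0.0146), -1.07 at P6 (adjusted p = 0.00783) and -0.94 at P10 (adjusted p = 0.0135). P0 replicate 1 was the higher of its pair, and without it the adjusted p was 0.151 at P4, 0.0843 at P6 and 0.130 at P10; the P4 call was also lost without P4 replicate 1 (0.132) or P4 replicate 2 (0.138).

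Bag2, which inhibits the ubiquitin ligase Stub1 bound to Hsp70, had 139 and 112 normalised reads at P0, then 144 and 92.8 (P2), 140 and 132 (P4), 281 and 244 (P6) and 359 and 210 (P10). All 4 libraries of P6 and P10 lay above all 6 earlier ones. It rose by 1.06 at P6 (SE 0.31, adjusted p = 0.0416) and 1.13 at P10 (SE 0.31, adjusted p = 0.0383). The P10 change was 0.74 without P10 replicate 1. Both calls were lost without any 1 of the 6 libraries through P4, the P6 call without either P6 library and the P10 call without P10 replicate 1 (highest adjusted p = 0.207 and 0.197), and both without a filter on low values. Stub1 itself, also called CHIP, had 1044 and 1186 at P0, 871 and 385 at P6, and 567 and 1300 at P10. These P10 values lay on either side of P0, and no comparison passed (log2 change at P10 -0.37, SE 0.43, adjusted p = 0.597). The P10 change turned to 0.22 in the 8-library fit, where the changes at P2 and P6 were -0.48 and -0.35. Bag1 ranged from 142 normalised reads in P6 replicate 2 to 265 in P10 replicate 2 and did not pass in any comparison.

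In the Hsp90 group, the chaperone and the adaptor that joins it to Hsp70 were higher late, and the cofactor of its closed state was lower from P2 on. Hsp90aa1, the inducible cytosolic Hsp90, had 8758 and 9396 normalised reads at P0, then 11574 and 9823 (P2), 10353 and 9358 (P4), 14488 and 12230 (P6) and 21625 and 13517 (P10). The 4 libraries of P6 and P10 lay above all earlier ones. The log2 change at P10 was 0.91 (SE 0.27, adjusted p = 0.0473), close to the threshold. It was 0.58 with P6 replicate 2 and P10 replicate 1 left out, where the change at P6 was 0.68. The P10 change was also 0.58 without P10 replicate 1 alone. Leaving out that library ended the call, as did leaving out any 1 of the 6 libraries through P4 (highest adjusted p = 0.237). It was also lost under quantile normalisation (0.145), when replicate number was fitted as a block (0.0515) and without a filter on low values.

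Stip1, also called Hop, which carries clients from Hsp70 to Hsp90, had 1760 and 1715 normalised reads at P0, then 1860 and 1605 (P2), 1877 and 1914 (P4), 3223 and 2854 (P6) and 4214 and 3190 (P10). It stayed near its P0 level through P4 and lay above all earlier libraries at P6 and P10. It rose by 0.80 at P6 (SE 0.19, adjusted p = 0.0196) and by 1.08 at P10 (SE 0.19, adjusted p = 0.00733). Both calls were lost without P0 replicate 1 or P0 replicate 2, and the P6 call also without P6 replicate 1 (highest adjusted p = 0.116 at P6 and 0.0696 at P10).

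Ptges3, the p23 cofactor that stabilises ATP-bound Hsp90 and also acts as a prostaglandin E synthase, had 2625 and 2049 normalised reads at P0, then 1010 and 1001 (P2), 729 and 738 (P4), 587 and 668 (P6) and 725 and 988 (P10). The lowest P0 library was above every later library. The means were 0.430, 0.314, 0.269 and 0.366 times the P0 mean at P2, P4, P6 and P10. It fell by 1.20, 1.66, 1.89 and 1.45 on the log2 scale (SE 0.20 each, adjusted p = 0.0149, 0.00252, 0.00102 and 0.00310). The calls at P4, P6 and P10 passed whichever 1 of the 10 libraries was dropped (highest adjusted p = 0.0427, 0.0183 and 0.0458). The P2 call was lost without P0 replicate 1 (0.176), P0 replicate 2 (0.0622), P2 replicate 1 (0.147) or P2 replicate 2 (0.148), and the P10 call with the spread of the P0 and P10 libraries alone (0.0958). Whether reads from near-identical copies of this gene were counted is not given in the sources used here.

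Ahsa1, the activator of the Hsp90 ATPase, had 2037 and 2111 normalised reads at P0, 1526 and 990 at P6, and 1713 and 2774 at P10. Fkbp4, a peptidyl-prolyl isomerase of steroid receptor complexes, had 3149 and 3106 at P0, 3020 and 1624 at P6, and 2556 and 5103 at P10. In both genes P6 replicate 2 was the lowest library and P10 replicate 2 the highest, and neither passed at P10 (adjusted p = 0.883 and 0.731). In the 8-library fit the P10 change was 0.42 in place of 0.07 for Ahsa1 and 0.71 in place of 0.21 for Fkbp4. At P6 that fit had Ahsa1 at -0.44. Chordc1, a zinc-binding partner of Hsp90 and another HSF1 target, had 834 and 844 at P0, then 1114 and 947 (P2), 943 and 851 (P4), 1020 and 884 (P6) and 1356 and 1138 (P10). Every later library lay above both P0 libraries, but the change at P10, 0.57 (SE 0.17), missed the threshold (adjusted p = 0.0547). It passed by DESeq2 and was 0.44 in the 8-library fit.

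None of the 7 measured subunits of TRiC passed in any of the 5 comparisons by limma. At an unadjusted p under 0.05, 3 were lower at P6 and 1 was higher at P10. The share of all features at that threshold was not computed. By edgeR none was called in any comparison. DESeq2 called Cct4 lower at P6 and Tcp1 higher at P10 and in P6 and P10 against P2 and P4. In those directions it called 12.7%, 12.2% and 11.4% of all features. Relative to the P0 mean, the subunits lay between 0.867 and 1.13 in P2 replicate 1 and between 0.896 and 1.06 in P2 replicate 2. They split at P6: in P6 replicate 2 Cct4 stood at 0.462 and the median subunit at 0.519, while Tcp1, the first subunit described, stood at 1.02. In P10 replicate 1 they ranged from 0.696 (Cct7) to 1.51 (Tcp1), and in P10 replicate 2 from 1.22 (Cct4) to 1.55 (Cct3).

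Cct3, an example of the subunits whose late duplicates disagreed, had 6844 and 7282 normalised reads at P0, then 7114 and 6420 (P2), 7483 and 6725 (P4), 5253 and 3278 (P6) and 5158 and 10946 (P10). P10 replicate 2 was its highest library, and P10 replicate 1 lay close to P6 replicate 1, below every library of P0, P2 and P4. Tcp1 had 3833 and 3846 at P0, then 4063 and 3714 (P2), 3895 and 3677 (P4), 4709 and 3910 (P6) and 5784 and 5238 (P10). Both of its P10 libraries were above all others (log2 change 0.52, SE 0.18, adjusted p = 0.0740). All 7 subunits were above zero at P10 on the deposited scale, by 0.05 to 0.52, but Cct3, Cct4, Cct5 and Cct7 were below zero without P10 replicate 2 (-0.45, -0.20, -0.34 and -0.52), with the total without Dym as the scale and under quantile normalisation, and Cct2 was under quantile normalisation. On the scale without Dym these 4 were at -0.01, -0.06, -0.00 and -0.06, where the median of all features was -0.10. Their distance from that median is nearly the same on both scales by construction. In the 8-library fit, where P10 is replicate 2 alone, the P10 changes ran from 0.29 (Cct4) to 0.63 (Cct3). At P4, Cct4 was at -0.33 and Cct7 at 0.31. At P6, from replicate 1 alone, Tcp1 was at 0.29 and Cct8 at 0.20. There Cct2, Cct3, Cct4, Cct5 and Cct7 were at -0.32, -0.43, -0.43, -0.47 and -0.35. The same 5 subunits passed as lower at P6 without P10 replicate 1 alone or P10 replicate 2 alone. Cct6a, the remaining common subunit with a row, had 6292 and 8271 at P0 and 7090 and 8104 at P10 (0.07, adjusted p = 0.853).

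**Figure D4:**
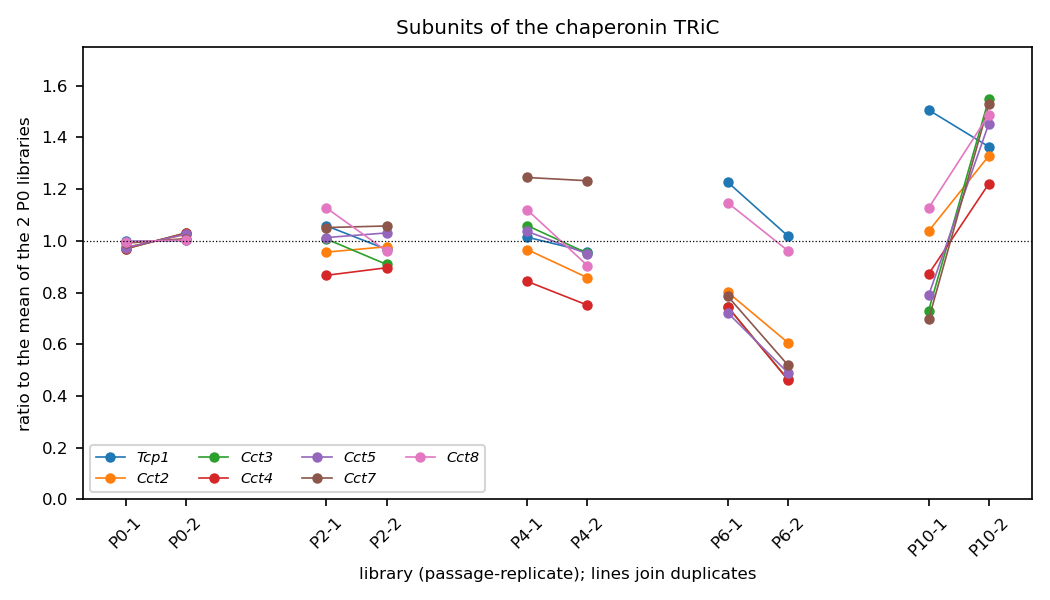
Ratio of each library to the mean of the 2 P0 libraries (vertical axis, from 0) for 7 subunits of TRiC; lines join duplicates of a passage. In P6 replicate 2 the subunits lie between 0.462 and 1.02, and in P10 replicate 1 between 0.696 and 1.51, with Tcp1 at the top of both.

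Mitochondrial chaperones did not move together. Hspd1, the Hsp60 chaperonin of the matrix, had 6226 and 6157 normalised reads at P0, then 6500 and 5768 (P2), 6519 and 6286 (P4), 8697 and 7917 (P6) and 15368 and 11617 (P10). It was level through P4 and lay above all earlier libraries at P6 and again at P10, where it rose by 1.11 (SE 0.21, adjusted p = 0.00965). That call was lost without P0 replicate 1 or P0 replicate 2 (highest adjusted p = 0.0880) and with the spread of the P0 and P10 libraries alone (0.149). Hspa9, mortalin, the Hsp70 of the matrix and of protein import, had 4521 and 4674 at P0, then 3036 and 2664 (P2), 3031 and 2782 (P4), 3857 and 2928 (P6) and 4378 and 3801 (P10).

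All 8 later libraries of Hspa9 lay below both P0 libraries, with means of 0.620, 0.632, 0.738 and 0.890 times the P0 mean. The changes at P2 (-0.69, SE 0.19, adjusted p = 0.0891) and P4 (-0.66, adjusted p = 0.0660) missed the threshold, which both passed when fitted with P6 replicate 2 and P10 replicate 1 left out (adjusted p = 0.000389 and 0.000321) and by DESeq2 (0.0167 and 0.0165). Trap1, the Hsp90 of mitochondria, ranged from 2470 in P6 replicate 2 to 4397 in P10 replicate 2, and Dnaja3, the J-domain partner of Hspa9, from 690 to 1005. Neither passed in any comparison with all libraries. In the 8-library fit Dnaja3 was at -0.37 at P2 and Trap1 at 0.44 at P10. At P6, Trap1 stood at -0.03 with all libraries (adjusted p = 0.930) and at 0.32 in the 8-library fit.

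Both small heat shock proteins were above P0 at P4 and P10, and neither passed. Hspb8, which works with Bag3 in selective autophagy, had 1325 and 1289 normalised reads at P0, then 2394 and 2249 (P2), 2552 and 2471 (P4), 2374 and 1408 (P6) and 1835 and 2895 (P10). Every later library was above both P0 libraries, with P6 replicate 2 the nearest to them. The log2 change was 0.83 at P2 (SE 0.28, adjusted p = 0.148), 0.94 at P4 (adjusted p = 0.0705) and 0.82 at P10 (adjusted p = 0.0766). Hspb8 passed by DESeq2 at P4 and P10 (adjusted p = 0.0165 and 0.0259). In the 8-library fit it was at 0.86 at P6 and 1.15 at P10. Hspb1, or Hsp27, had 397 and 355 at P0, 474 and 497 at P4, and 491 and 531 at P10 (0.44, SE 0.24, adjusted p = 0.238). Hspb1 was at 0.37, 0.78 and 0.50 at P4, P6 and P10 in the 8-library fit.

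Hsf1, the transcription factor of the heat shock response, had 551 and 473 normalised reads at P0, then 463 and 478 (P2), 426 and 513 (P4), 747 and 690 (P6) and 801 and 704 (P10). All 4 libraries of P6 and P10 lay above all 6 earlier ones. The changes of 0.49 at P6 and 0.56 at P10 (SE 0.17 each) missed the threshold against P0 (adjusted p = 0.0757 and 0.0583). The P6 change passed without P10 replicate 1 (0.0301) or P10 replicate 2 (0.0298), and the P10 change by DESeq2 (0.0445) and without P10 replicate 2 (0.0249). The P6 and P10 changes were 0.55 and 0.46 in the 8-library fit. These are levels of its transcript, and the activity of the protein was not measured.

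The late libraries were also set against the early adapted ones, P6 and P10 against P2 and P4, which leaves the P0 libraries out of the difference. Of the 34 genes, 4 were higher, where 5.0% of all features were, and 0 were lower, where 3.14% were (8.14% in either direction). For the lower side, 1 gene had an unadjusted p under 0.05 by limma, and the share of all features at that threshold was not computed. None was lower by edgeR or DESeq2, where 3.21% and 7.35% of all features were. The 4 higher genes by limma were Bag2 (log2 difference 1.09, SE 0.22, adjusted p = 0.0274), Stip1 (0.88, SE 0.13, adjusted p = 0.0156), Hspd1 (0.75, SE 0.15, adjusted p = 0.0259) and Hsf1 (0.64, SE 0.12, adjusted p = 0.0255). In each of them the 4 late libraries lay above the 4 early ones, as they also did for Hspa4 and Hsp90aa1, which did not pass (adjusted p = 0.0670 and 0.0875). So 6 genes had late libraries all above the early ones, where 10.2% of all features did, and none had them all below, where 7.88% did. Each of the 4 calls was lost without any 1 of the 6 libraries through P4 (highest adjusted p = 0.134 for Bag2, 0.113 for Stip1, 0.145 for Hspd1 and 0.135 for Hsf1), and those of Bag2, Hspd1 and Hsf1 also without P6 replicate 1 or 2. None of the 4 passed with the P0 libraries out of the fit, and Hsf1 did not when replicate number was fitted as a block (adjusted p = 0.0510). Hspa8 (0.24, adjusted p = 0.332) and Ptges3 (-0.24, adjusted p = 0.256) did not differ beyond the threshold between the late and the early libraries. The 8-library fit had Hspa8 at 0.35, Hspa4 at 0.43 and Hsp90aa1 at 0.45 in this comparison.

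A wider list of other cytosolic and mitochondrial chaperones, cofactors and proteases held 83 genes, of which 75 had a row and 66 were tested. At P10 against P0, 9 of the 66 rose and 1 fell (13.6% and 1.52%, against 8.77% and 8.25% of all features), and the median log2 change was 0.18. By kind, 4 of 25 J-domain proteins rose and 1 fell, 3 of 11 chaperonin and prefoldin genes rose and 2 of 7 Hsp70 nucleotide exchange factors and cofactors rose. Among those with the smallest p were 3 of 11 genes of chaperonin assistance and prefoldin, the complex that hands actin and tubulin to TRiC. Pdcl, a phosducin-like TRiC cofactor, had 582 and 658 normalised reads at P0 and 1386 and 1032 at P10 (0.95, SE 0.20, adjusted p = 0.0156). Prefoldin subunit Vbp1 had 1855 and 2037 at P0 and 4333 and 3072 at P10 (0.91, adjusted p = 0.0266), and Pfdn1 had 652 and 852 at P0 and 1697 and 1114 at P10 (0.88, adjusted p = 0.0326).

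In all 3 of these genes P10 replicate 1 was the higher duplicate. The 1 gene that fell was Dnajc27, from 160 and 139 to 70.0 and 99.9 (-0.83, adjusted p = 0.0479). The calls of Vbp1, Pfdn1 and Dnajc27 were lost without P10 replicate 1 or any 1 of the 6 libraries through P4 (highest adjusted p = 0.176, 0.228 and 0.253), and that of Pdcl without P0 replicate 1 or P0 replicate 2 (0.133). Of the wider list, none rose without P0 replicate 1 or P0 replicate 2 and 21 did without P10 replicate 2; 3 rose without P10 replicate 1 and when replicate number was fitted as a block, and 24 rose and 2 fell with P6 replicate 2 and P10 replicate 1 left out.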

How the data were processed

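The authors deposited a normalised signal for each feature in each library; DESeq is the tool named in the submitters' processing notes, without a version. Libraries were stranded TruSeq after Ribo-Zero depletion of ribosomal RNA from Trizol extracts, per the labels' protocols. Aligner, counting tool, build and annotation: not given in the sources used here. Values in every column are whole multiples of one step per column (within 0.000794 reads in every column), which gave whole reads for edgeR 4.0.16 and DESeq2 1.42.0 as alternatives; in P4 replicate 1 this step is close to 1, so the reading is less certain there. Symbols came from the file or from a RefSeq gene table of another assembly, used for names only.

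The main test was limma 3.58.1 (R 4.3.3) on log2(deposited signal + 1) with a trended prior, over the 13521 features whose mean reached 10. One model took the 10 libraries together, with 5 passage means and 5 residual degrees of freedom, so each gene has a single spread pooled over passages. The 5 comparisons were two-sided with Benjamini-Hochberg adjustment over all tested features at 0.05. Fold changes are on that log2 scale and understate changes of low genes. A gene is said to pass, rise, fall or be called at that threshold. The fit was tested on simulated data with the same spread at every passage. That test does not cover the wider gaps between duplicates seen at P6 and P10. All members with a row are named; of the wider list, the up to 4 with the smallest p in each direction, plus Cct6a and Hspa1a; 1 gene that the rule would name is not reported here. The members, lists and alternatives were chosen with earlier results of these data known.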

Additional observations from a re-analysis of the deposited data

Results flagged for a closer look

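For 4 genes the change at the late passages differed from the change at the early ones by a test of the difference itself. The P0 libraries cancel from that difference but still add to the estimate of the spread. Each of the 4 calls was lost without P0 replicate 1, without P0 replicate 2 or without any single P2 or P4 library. None of the 4 passed with the P0 libraries out of the fit. The change at P6 and P10 exceeded that at P2 and P4 by 1.09 on the log2 scale for Bag2, 0.88 for Stip1, 0.75 for Hspd1 and 0.64 for Hsf1. In all 4 genes each late library was above each early one. With 2 libraries per passage, no group was large enough to look for single outlying libraries.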

How the results depend on the processing

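Numbers of the 34 genes called moved most with the libraries used, as calls over all features did. When 1 library was left out in turn, the genes higher ranged from 0 to 1 at P2, 0 to 1 at P4, 0 to 6 at P6, 0 to 11 at P10 and 0 to 11 in P6 and P10 against P2 and P4; those lower ranged from 0 to 3, 1 to 3, 1 to 10, 1 to 2 and 0 to 6. For the wider list at P10 the ranges were 0 to 21 higher and 0 to 4 lower. A passage left with 1 library adds nothing to the spread and is assumed to vary like the others. For P6 and P10, whose duplicates differed more, that spread can be too small. Without both P6 replicate 2 and P10 replicate 1, 4 genes were higher and 5 lower at P2 and likewise at P4, 14 were higher and 10 lower at P6, 23 were higher at P10, and 16 higher and 1 lower in the late comparison; the wider list had 24 higher and 2 lower. That setting called 34.1 to 48.8% of all features in the comparisons with P0 and 26.8% in the late comparison. Some values turned to the other direction in that setting. Among them were Trap1 at P6 (0.32) and, in the late comparison, Stub1 (0.28), Fkbp4 (0.27) and Trap1 (0.26).

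From the libraries of the passages compared alone, 3 genes were higher and 5 lower at P2, 4 and 5 at P4, 0 and 0 at P10 (also 0 and 0 of the wider list), and 0 higher in the late comparison. The same fits called 29.1% of all features at P2, 42.0% at P4, 0.362% at P10 and 0.732% in the late comparison. Under DESeq2, 3 were lower at P2, 1 higher at P4, 11 higher at P10 and 8 higher in the late comparison. These were 8.82%, 2.94%, 32.4% and 23.5% of the genes, against 4.30%, 5.46%, 12.2% and 11.4% of all features. In the wider list at P10, 2 were lower under DESeq2 (10.1% of all features). Without a filter, edgeR called 1 higher at P4 (2.82% of all features). Quantile normalisation gave 2 lower at P2, 7 lower at P6 and 1 lower in the late comparison (2.46%, 10.5% and 3.65% of all features). In the wider list at P10 it gave 5 higher and 0 lower (8.36% and 8.77%). Scaling to the total without Dym gave 4 higher at P10 and 2 in the wider list, where 6.12% of all features were higher. No filter on low values gave 1 higher at P6 (6.37% of all features). In the wider list at P10 it gave 3 higher and 0 lower (4.42% and 4.32%). A minimum mean of 1 gave 0 lower there (6.05%). An untrended prior gave 1 higher at P6 and 3 in the wider list at P10 (9.27% and 7.14% of all features). The cause of these shifts was not tested. Pseudocounts of 0.5 and 5, a minimum mean of 50 and edgeR kept each count within 1.5 times.

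Replicate numbers did not pair the libraries: differences between duplicates correlated between passages from -0.670 to 0.225, and 1 of 10 pairs of passages exceeded 0.1. With the replicate number as a block, 3 genes of the wider list were higher and 0 lower at P10, where 6.57% and 5.90% of all features were.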

Other observations

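Many of these genes differed between duplicates in the same way at P6 and P10, a pattern chosen after the values were seen and shared with the features at large, whose differences between duplicates at P6 and P10 (replicate 1 against replicate 2) correlated at -0.670. In P10 replicate 1, 11 of the 34 genes were under 0.75 times their level in P10 replicate 2, and in P6 replicate 2, 14 were under 0.75 times their level in P6 replicate 1. These were 32.4% and 41.2% of the genes, against 32.2% and 29.3% of all tested features. The 9 genes in both sets were Cct3, Cct4, Cct5 and Cct7 of TRiC, the Hsp90 cofactors Ahsa1 and Fkbp4, the ligase Stub1, the J-domain partner Dnajb1 and the small heat shock protein Hspb8, 26.5% of the 34, where 21.4% of all features were in both. Hspa4, Bag2 and Hsp90aa1 went the other way in P10 replicate 1, above replicate 2 by more than the inverse of that ratio, and no gene did so in P6 replicate 2, where 31.1% and 22.6% of all features did.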
